A study of Mus musculus with 6 samples.

Results

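The acute-phase and serpin A3 genes are 10 of the 54532 genes of the table: Saa1, Saa2 and Saa3 (serum amyloid A), Lcn2 (lipocalin 2), Hp (haptoglobin), Ptx3 (pentraxin 3), Steap4 (STEAP4 metalloreductase), and Serpina3f, Serpina3g and Serpina3n (serpins of the A3 family). They were chosen by name around Saa3 and Lcn2, which are among the largest differences between the groups compared here. Their differences between these groups are therefore given as values, with no test.

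RNA sequencing measured mouse vascular smooth muscle cells of WT genotype in 2 groups of 3 libraries. The adenoviral vector carried a control plasmid in the libraries labelled Ad-Con and a plasmid for overexpression of pyruvate dehydrogenase kinase 4 (PDK4, which inhibits the pyruvate dehydrogenase complex of mitochondria) in those labelled Ad-PDK4. All cells were grown in medium with fetal bovine serum, and the methods of the study describe a period without serum for in vitro experiments. According to the study they were primary aortic cells that received angiotensin II in both groups, a treatment that the labels leave out, and the question was what PDK4 overexpression changes in them. Cells without a vector or without angiotensin II were not analysed here. Values are FPKM, fragments counted on a gene relative to its length and to the depth of the library, which allow levels to be compared between genes. Reads assigned to genes ranged from 17588942 to 21861872 per library, and 1 read in a gene of 1 kb was worth 0.0453 to 0.0571 FPKM. The labels give no source for the replicates. The study calls them biological replicates, but p-values here measure only the spread between these libraries, which may be technical.

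Pdk4, examined first as the check of the labels, stood at 10.0 ± 0.469 FPKM (mean ± SD, n = 3) under the Ad-Con label and at 7.48 ± 0.162 FPKM under the Ad-PDK4 label. Its log2 fold change was -0.42 (limma adjusted p = 1.14e-03), which goes against the label. Whether reads from the insert of the vector enter this count is not given in the sources used here. Higher and lower therefore refer throughout to libraries labelled Ad-PDK4, as compared with the ones labelled Ad-Con. Of the smooth muscle markers, Acta2 (smooth muscle actin) was present in all 6 libraries and fell from 78.0 ± 0.950 to 36.2 ± 2.40 FPKM (limma adjusted p = 5.28e-06). Cald1 (caldesmon) rose from 56.0 ± 0.646 to 71.9 ± 2.82 FPKM (limma adjusted p = 6.60e-04), Tpm2 (a tropomyosin) fell from 27.8 ± 0.996 to 22.1 ± 1.59 FPKM (limma adjusted p = 4.81e-03), and Smtn (smoothelin) stood at 8.32 ± 0.114 and 8.44 ± 0.445 FPKM. Myh11, the smooth muscle myosin heavy chain, had at most 10 reads in any library, and Tagln had at most 20. The summed level of 12 smooth muscle markers was 172 to 173 FPKM under the Ad-Con label and 135 to 145 under the Ad-PDK4 label, and without Acta2 it was 94.5 to 95.4 and 101 to 108. Most of the sum without Acta2 is Cald1, the only marker of the list that was higher with no overlap.

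The acute phase response is the change in secreted proteins that follows infection or injury. Interleukin 6, interleukin 1 and related cytokines act through STAT3, NF-kB and C/EBP transcription factors, and the liver is the main source of the proteins in plasma. Saa1 and Saa2 encode the circulating serum amyloid A proteins, while mouse Saa3 is made mainly outside the liver. Lipocalin 2 binds bacterial siderophores and so withholds iron, haptoglobin binds free haemoglobin, and pentraxin 3 is a soluble pattern recognition protein that is produced locally. The A3 serpins inhibit proteases. Steap4 reduces iron and copper at membranes and responds to inflammatory cytokines.

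The stretch before the transcription start is shown for 5 members, since Saa3 and Saa1 lie in one gene cluster with many reads and with 0 reads, Serpina3g and Serpina3n lie in another with ratios between the groups of 6.70 and 0.863, and Steap4 followed Saa3 in level. Each is the 250 bases before the RefSeq start site on GRCm38.p6, on the strand of the gene. Saa3 is chr7:46715677-46715926 and Saa1 chr7:46742981-46743230, both on the minus strand. Steap4 is chr5:7960222-7960471, Serpina3g chr12:104235897-104236146 and Serpina3n chr12:104406458-104406707, all on the plus strand. In the GENCODE annotation 24 bases of the Saa3 stretch lie in an exon of the gene, and 98 of the Steap4 stretch lie in exons of Steap4 or of the gene model Gm30835. Capitals mark matches to any of 4 motifs.
Saa3: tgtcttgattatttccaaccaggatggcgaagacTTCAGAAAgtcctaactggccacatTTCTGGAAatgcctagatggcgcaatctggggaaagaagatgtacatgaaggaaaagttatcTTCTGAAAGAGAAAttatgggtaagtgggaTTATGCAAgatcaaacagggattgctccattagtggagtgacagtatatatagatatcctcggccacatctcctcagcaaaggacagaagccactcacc
Saa1: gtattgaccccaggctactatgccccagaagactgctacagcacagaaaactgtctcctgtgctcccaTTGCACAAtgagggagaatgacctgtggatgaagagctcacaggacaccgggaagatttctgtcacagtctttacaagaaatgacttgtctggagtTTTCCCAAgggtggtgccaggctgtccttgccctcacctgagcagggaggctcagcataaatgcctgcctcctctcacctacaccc
Steap4: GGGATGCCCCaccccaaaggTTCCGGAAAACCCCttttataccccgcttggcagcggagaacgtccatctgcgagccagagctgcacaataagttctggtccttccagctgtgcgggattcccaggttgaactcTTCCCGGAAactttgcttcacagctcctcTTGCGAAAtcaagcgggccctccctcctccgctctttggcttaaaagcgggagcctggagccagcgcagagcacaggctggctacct
Serpina3g: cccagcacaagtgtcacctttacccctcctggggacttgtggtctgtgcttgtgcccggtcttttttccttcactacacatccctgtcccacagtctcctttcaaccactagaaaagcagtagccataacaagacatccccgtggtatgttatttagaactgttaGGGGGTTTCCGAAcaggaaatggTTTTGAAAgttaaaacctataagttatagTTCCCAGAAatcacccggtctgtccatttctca
Serpina3n: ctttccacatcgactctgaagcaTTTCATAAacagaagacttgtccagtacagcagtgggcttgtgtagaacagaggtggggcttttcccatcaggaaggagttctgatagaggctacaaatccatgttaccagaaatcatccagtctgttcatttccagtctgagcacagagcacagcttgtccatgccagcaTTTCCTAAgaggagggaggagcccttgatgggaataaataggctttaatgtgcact

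The motifs were the C/EBP motif TTNNGNAA, the STAT motif TTCNNNGAA, the interferon-response motif, which is GAAA repeated after 2 bases of any kind, and the kappaB consensus, each searched on both strands, and they were chosen with these sequences in view. A promoter was found for 9 of the 10 members, all but Hp. At least 1 C/EBP motif stood before the start of each of these 9, against 36.8% of all 32851 promoters of the same length. Saa3 held 4 of them, at -216, -191, -129 and -99 from the start site, and the one at -129 overlapped an interferon-response motif at -125 (2.98% of all promoters). Saa1 held 2 C/EBP motifs and Saa2 held 1, with no match to the other motifs. The Saa1 and Saa2 stretches were 95.6% identical over 248 aligned bases, whereas the best local alignment of Saa3 with Saa2 covered only 18 bases. The kappaB consensus (7.25% of all promoters) was found before Steap4, with 2 matches, and Serpina3g, with 1. Each of these genes also held a STAT motif (7.02% of all promoters), as did Serpina3f. In Steap4 the C/EBP motif at -230 overlapped the kappaB match at -226, and in Serpina3g the kappaB match at -85 overlapped the C/EBP motif at -80. The best local alignment of Serpina3g with Serpina3n covered 31 bases, and Serpina3n held 2 C/EBP motifs alone. The stretch at the first start site of Serpina3f was 81% identical to Serpina3g over 147 aligned bases and 78.6% to Serpina3n over 84. The Serpina3g stretch ends at 104236146 and its gene starts at 104236245, against 104406707 and 104406729 for Serpina3n. Whether these stretches are matching parts of the genes was not tested. Before Lcn2 and Ptx3 there was 1 C/EBP motif each. For Lcn2, 197 of the 250 bases lie in exons of the gene in the GENCODE annotation, so that stretch is not shown. A match describes the letters and was not tested for binding.

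**Figure D1:**
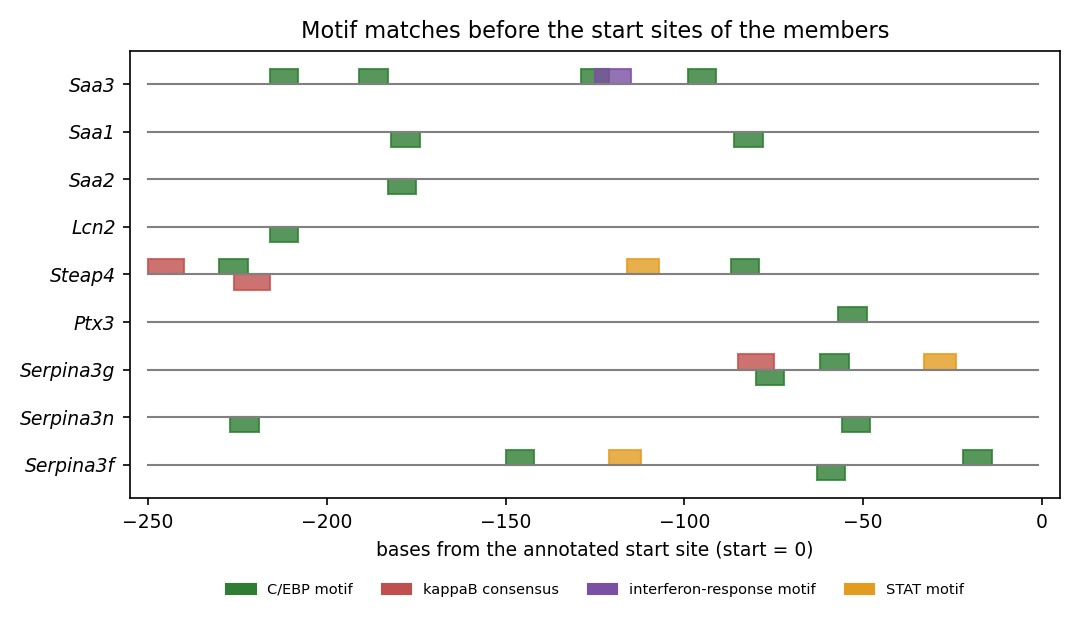
Matches to the 4 motifs in the 250 bases before the start site of 9 members, with the distance from the start site in bases on the x axis; boxes above a line are on the strand of the gene and boxes below it on the opposite strand, and overlapping boxes are overlapping matches. For Serpina3f the first of its start sites is drawn. Saa3 has 4 C/EBP boxes and the single interferon-response box, and kappaB boxes appear only for Steap4 and Serpina3g.

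Saa3 (ENSMUSG00000040026, chromosome 7, 46711998 to 46715700, GRCm38) had the highest level of the 10 genes under the Ad-PDK4 label. It had 2, 0 and 1 reads in Ad-Con replicates 1 to 3 and 2152, 1588 and 3441 reads in Ad-PDK4 replicates 1 to 3. As FPKM this was 0.0377, 0 and 0.0212 against 45.4, 34.8 and 59.8. The gene was thus near 0 in the control libraries and high in each library labelled Ad-PDK4, where its mean of 46.7 ± 12.5 FPKM had rank 1190 among all genes. The depth-scaled reads had a ratio of 2321, with an exact 95% interval of 794 to 11259 that covers counting error only. On the log2(FPKM + 0.1) scale the difference was 8.59 (SE 0.21), and it moved with the pseudocount, from 5.51 at a pseudocount of 1 to 10.86 at 0.01. More cells making the transcript and more transcript per cell cannot be told apart in these bulk libraries, here and for every gene below.

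Saa1 (chromosome 7, 46740497 to 46742980) and Saa2 (46751790 to 46754313), the isoforms of the circulation, had 0 reads in all 6 libraries. A count of 0 allows up to 3 reads, which is 0.0548 to 0.0692 FPKM for Saa1 and 0.0539 to 0.0681 FPKM for Saa2. Of their transcripts, 37.7% and 37.8% lie in 100-base stretches that they share with each other, and how shared reads were counted is not given in the sources used here. No such stretch of Saa3 occurs in another gene. Saa4, the constitutive serum amyloid A gene, lies between Saa3 and Saa1 and had 0, 0 and 0 reads against 1, 1 and 4. The genes that flank the cluster were expressed in both groups. Saal1 stood at 2.34 ± 0.0158 and 2.69 ± 0.101 FPKM (log2 fold change 0.19, limma adjusted p = 0.110), and Hps5 at 6.93 ± 0.571 and 8.42 ± 0.311 FPKM (log2 fold change 0.28, limma adjusted p = 0.0193). Within the cluster the high level under the Ad-PDK4 label was thus seen in Saa3, with its neighbours on either side at 2.69 FPKM and at 6 reads in sum.

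**Figure D2:**
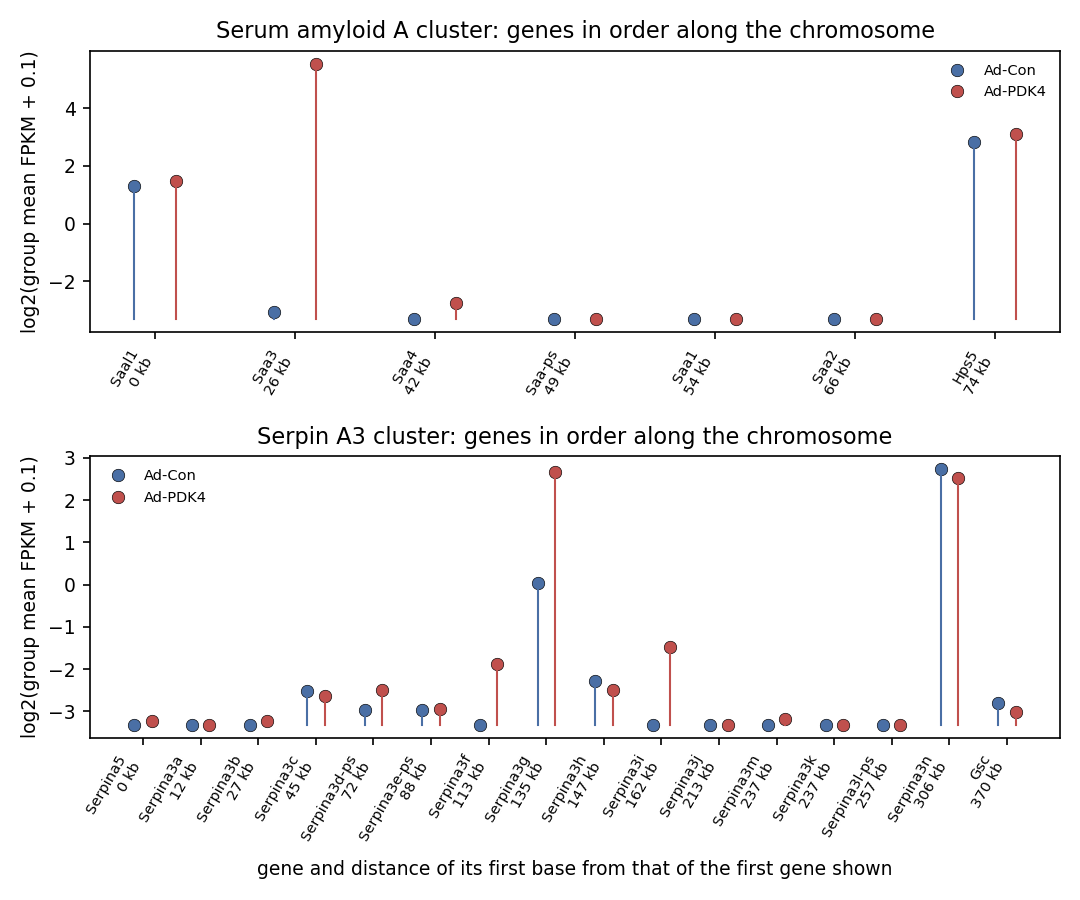
Levels of the genes around Saa3 (top) and around the A3 serpins (bottom), in their order along the chromosome, as log2 of the group mean FPKM plus 0.1; stems start at the value of 0 FPKM and predicted genes named Gm are left out. Labels give the distance in kb from the first gene shown. In the top panel Saa3 stands at 46.7 FPKM under the Ad-PDK4 label among serum amyloid A genes near 0, and in the bottom panel Serpina3g and Serpina3n are the A3 serpins above 1 FPKM.

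Lcn2 (ENSMUSG00000026822, chromosome 2, 32384633 to 32388252) had 0 reads in each Ad-Con library and 100, 61 and 160 reads in the Ad-PDK4 libraries. These are 2.10, 1.33 and 2.76 FPKM, with a mean of 2.06 ± 0.717. It was at least 33.5-fold higher, computed against 3 reads in each control library. Its level under the Ad-PDK4 label was the lowest of the members that passed the filter on low values, and replicate 3 stood above replicates 1 and 2. The fitted log2 difference of 4.38 (SE 0.40) depends on the pseudocount, with 1.59 at a pseudocount of 1 and 7.63 at 0.01, and is no bound.

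Steap4 (ENSMUSG00000012428, chromosome 5, 7960457 to 7982213) had the next highest level after Saa3. It had 11, 12 and 5 reads against 959, 946 and 1723, which is 0.171, 0.217 and 0.0874 FPKM against 16.7, 17.1 and 24.7. The means were 0.158 ± 0.0656 and 19.5 ± 4.51 FPKM, a ratio of 123 that ranged from 101 to 151 when 1 library was left out. The log2 difference was 6.26 (SE 0.23). Replicates 1 and 2 labelled Ad-PDK4 lay close together and replicate 3 above them, and no control library came near the range of the others.

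Hp (ENSMUSG00000031722, chromosome 8, 109575128 to 109579172) was detected in every library. Its reads were 35, 24 and 19 against 182, 198 and 279, or 1.07, 0.851 and 0.653 FPKM against 6.23, 7.04 and 7.87. The mean went from 0.858 ± 0.209 to 7.05 ± 0.819 FPKM, a ratio of 8.21 and a log2 difference of 2.92 (SE 0.17). Hp had the smallest spread of the members under the Ad-PDK4 label, with a coefficient of variation of 11.6%. Ptx3 (ENSMUSG00000027832, chromosome 3, 66219910 to 66225805) had 14, 2 and 9 reads against 160, 143 and 259. These are 0.256, 0.0425 and 0.185 FPKM against 3.28, 3.05 and 4.37, with means of 0.161 ± 0.109 and 3.57 ± 0.708. The ratio of 22.1 rested on few control reads: it was 31.3 when Ad-Con replicate 1 was left out and 16.2 when replicate 2 was. For both genes the lowest library labelled Ad-PDK4 stood above the highest labelled Ad-Con.

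The A3 serpins lie in one cluster on chromosome 12 and differed from each other in level and in size of difference. Serpina3g (ENSMUSG00000041481, 104236245 to 104241939) had 36, 49 and 24 reads against 210, 214 and 346, which is 0.840, 1.33 and 0.629 FPKM against 5.48, 5.81 and 7.44. Its mean was 0.932 ± 0.357 against 6.24 ± 1.05 FPKM, a ratio of 6.70 and a log2 difference of 2.66 (SE 0.25). Serpina3n (ENSMUSG00000021091, 104406729 to 104414329) had 249, 282 and 223 reads against 230, 160 and 293, which is 5.93, 7.78 and 5.96 FPKM against 6.12, 4.43 and 6.43. The groups overlapped, with means of 6.56 ± 1.06 and 5.66 ± 1.08 FPKM, a ratio of 0.863 and a log2 difference of -0.22 (SE 0.17). Serpina3n was thus the most abundant member under the Ad-Con label and the only one of the 8 with reads that did not stand higher under the Ad-PDK4 label. Of all tested genes 27.8% were higher with no overlap. The members were chosen from this contrast, so nothing is read from their count.

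Serpina3f (104214544 to 104221129) had 0, 0 and 0 reads against 2, 5 and 17. It was at least 2.41-fold higher, or 1.23-fold without Ad-PDK4 replicate 3, which holds 17 of its 24 reads, and the 2 reads of replicate 1 are within the 3 that a count of 0 allows. Its 3 libraries spread over 0.0480, 0.125 and 0.336 FPKM, a coefficient of variation of 88.0%. Of the Serpina3g transcript, 20.9% lies in 100-base stretches that also occur in 5 other genes of the cluster, Serpina3f, Serpina3h, Serpina3i and Serpina3n among them. For Serpina3f this share was 8.72% and for Serpina3n 4.99%, so reads could be split between these genes and the low counts of Serpina3f are uncertain. The next genes along the cluster had few reads. Serpina3h had 0, 8 and 0 against 2, 3 and 1, and Serpina3i had 0, 0 and 0 against 9, 4 and 22.

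**Figure D3:**
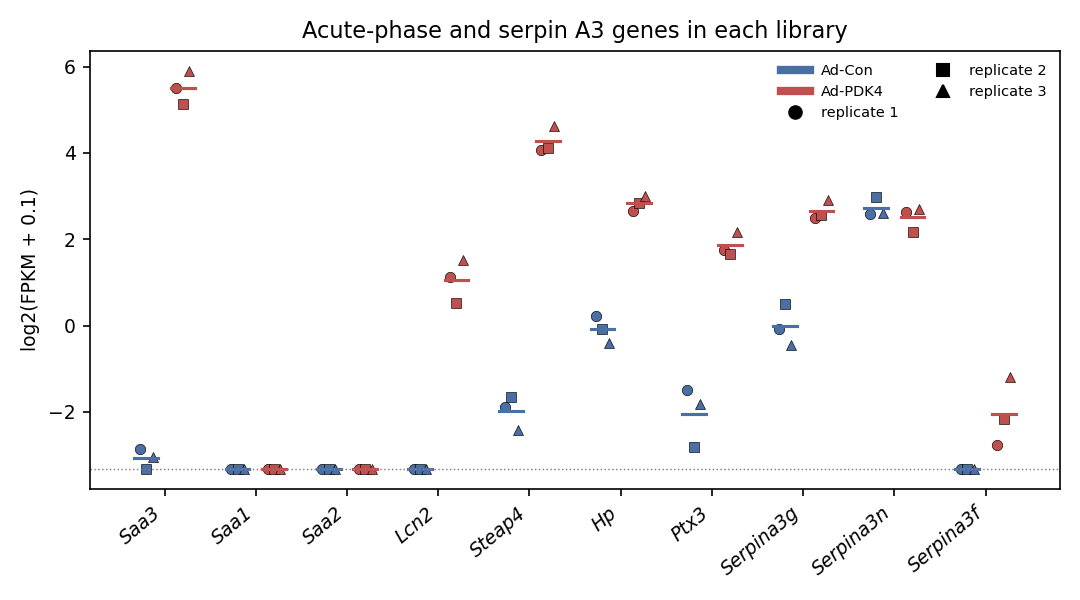
FPKM of the 10 genes in each library, on a log2 axis after adding 0.1; symbols mark replicates, horizontal bars the mean of the log2 values in each group, and the dotted line a value of 0 FPKM. Saa3, Lcn2, Steap4, Hp, Ptx3, Serpina3g and Serpina3f have no overlap between the groups, Serpina3n overlaps, and Saa1 and Saa2 lie on the line in all 6 libraries. The members were chosen from this contrast, and of all tested genes 27.8% were higher with no overlap.

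In order of level per length under the Ad-PDK4 label, Saa3 stood first with 46.7 FPKM, followed by Steap4 with 19.5 FPKM, and their ranges did not overlap with each other or with the next gene. Hp, Serpina3g and Serpina3n came next at 7.05, 6.24 and 5.66 FPKM, and neighbours among them overlapped. Ptx3 at 3.57, Lcn2 at 2.06 and Serpina3f at 0.170 FPKM followed, each below the range of the one before. Under the Ad-Con label Serpina3n stood first and alone at 6.56 FPKM. Serpina3g and Hp overlapped at 0.932 and 0.858 FPKM, as did Ptx3 and Steap4 at 0.161 and 0.158, and the rest were at or near 0. Ad-PDK4 replicate 3 was the highest of its group for 8 of the 8 members with reads. Over the 13423 genes tested it was the highest for 36.4%. Over the genes that rose by at least 2-fold at an adjusted p below 0.05 it was the highest for 55.3%. It was also the deepest library, and the part of depth in this was not tested, although FPKM is scaled for depth.

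A mean of at least 0.5 FPKM over all libraries was needed to enter the fit over all genes, and 7 of the 10 members reached it. Saa1, Saa2 and Serpina3f did not. Of the 7, Saa3, Steap4, Ptx3 and Lcn2 had control means under 0.5 FPKM and entered only through their level under the Ad-PDK4 label, so these had to differ. In this fit 2928 genes (21.8%) rose and 2798 (20.8%) fell at an adjusted p below 0.05, and 530 (3.95%) rose and 360 (2.68%) fell by at least 2-fold as well. The balance of the directions depended on the scaling, with 3361 rising and 2430 falling after rescaling to TPM and 2533 and 3140 after quantile normalization. The 6 tested members other than Serpina3n are among the 530, and nothing is read from that count because the members were chosen from this contrast. All 3 Ad-PDK4 libraries were above all 3 Ad-Con libraries in 27.8% of the tested genes and below them in 26.5%.

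The other genes of the acute phase response were read from the same fit, with limma's adjusted p over all tested genes. The lists here and below were written with earlier results of these data known, so their counts describe and do not test. Genes that entered the fit only through 1 group stay in the counts. Of 32 other acute-phase protein genes 15 were tested, and 9 rose (60%, beside 21.8% of all tested genes) and 2 fell. Their median log2 fold change was 1.25, beside -0.0031 for all tested genes. Of the 9, 6 are genes of the complement system or its inhibitor Serping1. C3, the central complement component, went from 8.91 ± 1.59 to 388 ± 18.0 FPKM (log2 fold change 5.44, adjusted p = 1.52e-07). C4b rose by 3.06 (adjusted p = 1.15e-05), although 38.3% of its transcript is shared with C4a. Cfb, factor B of the alternative pathway, had 2, 3 and 2 reads against 87, 133 and 118, a ratio of depth-scaled reads of 46.8 with an exact 95% counting interval of 22.5 to 117. It entered the fit only through its level under the Ad-PDK4 label and so had to differ. Of its transcript, 81.7% is shared with the overlapping gene model Gm20547. A further 5 that rose were Serping1, C1ra, Cp (ceruloplasmin), C1s1 and Cd14, named after their values were seen.

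Agt, the precursor of angiotensin, fell from 1.74 ± 0.395 to 0.406 ± 0.146 FPKM (log2 fold change -1.88), and entered the fit only through its control level. Mt1, a metallothionein, fell by -0.31 on the log2 scale (adjusted p = 0.0163), and this was not past the threshold without Ad-Con replicate 3. Of the 17 genes not tested, 7 had 0 reads in all libraries and no library had more than 23 reads for any of the 17. The fibrinogen genes Fga, Fgb and Fgg, the serum amyloid P gene Apcs, Crp, Orm1 and Orm3 were the ones at 0.

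**Figure D4:**
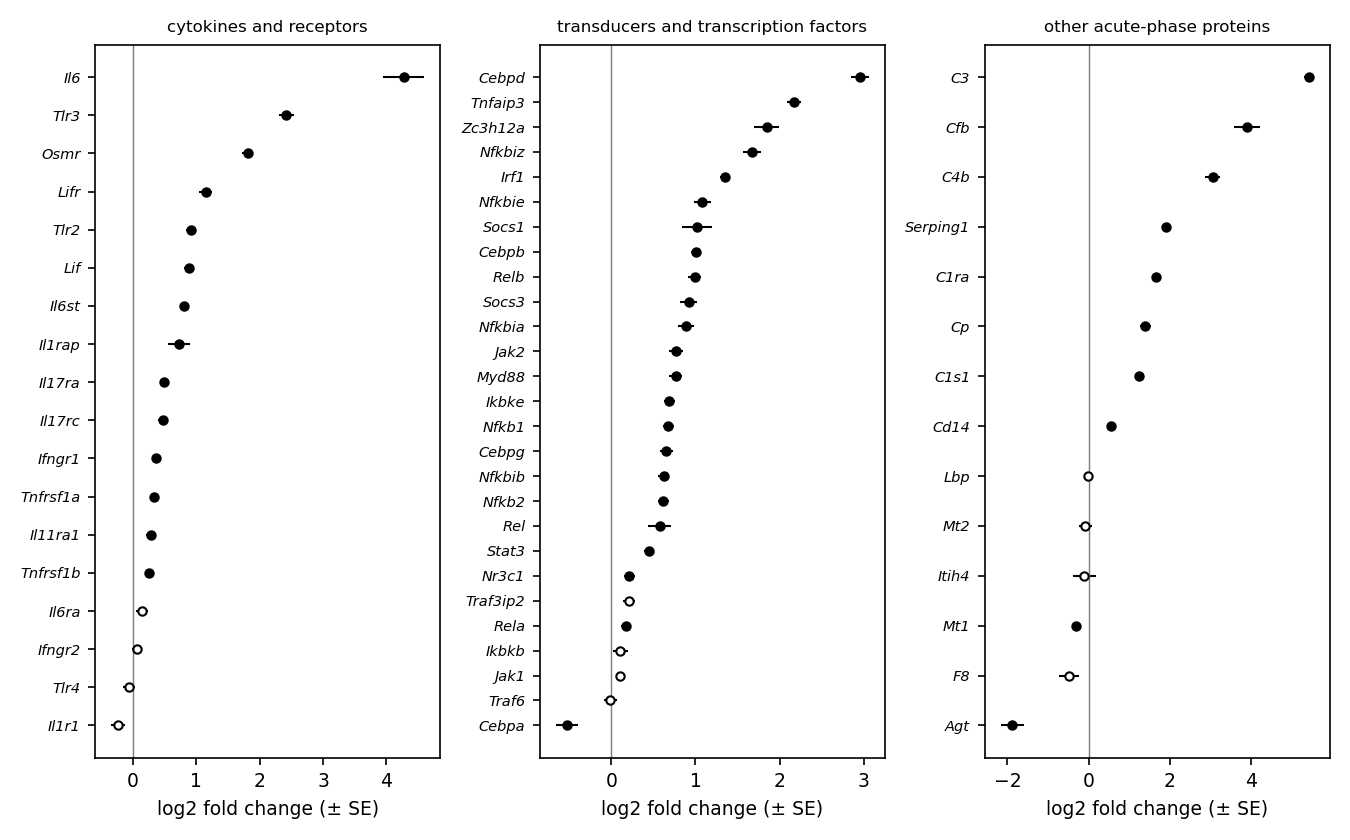
Log2 fold change (Ad-PDK4 minus Ad-Con, on the log2(FPKM + 0.1) scale) with its SE for the tested genes of 3 lists that are reported here, ordered by size; filled points passed an adjusted p of 0.05 and open points did not. Most points lie right of 0 in each panel. Over the full lists, 14 of 18 cytokines and receptors, 23 of 28 transducers and transcription factors and 9 of 15 other acute-phase proteins rose. Of all tested genes 21.8% rose.

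Among cytokines and receptors upstream of the response, 14 of 18 tested genes rose and 0 fell, beside 21.8% and 20.8% of all tested genes. Their median log2 fold change was 0.48. Without trend and robust moderation 1 gene, Il1r1, counted as lower. Il6, the main inducer of the response, had 4, 1 and 2 reads against 114, 89 and 210, a mean of 0.0499 ± 0.0290 against 2.86 ± 0.943 FPKM. The depth-scaled ratio was 57.2 with an exact 95% counting interval of 27.5 to 143, and the gene entered the fit only through its level under the Ad-PDK4 label, so it had to differ. Tlr3, a receptor for double-stranded RNA, rose by 2.42 (adjusted p = 4.18e-06). Osmr rose by 1.81 (adjusted p = 2.84e-06) and Lifr by 1.15 (adjusted p = 9.61e-05); these are receptors of the interleukin 6 family. Il1b, Osm, Ifng and Il17a had 0 reads in all libraries, so their transcripts were not detectable at this depth, and Tnf had 2 reads in 1 library. The receptor genes Tnfrsf1a, Tnfrsf1b, Il17ra and Ifngr1 rose.

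All 28 signal transducers and transcription factors of the response were tested. Of these, 23 rose and 1 fell, beside 21.8% and 20.8% of all tested genes, with a median log2 fold change of 0.73. The rise was largest for Cebpd, a C/EBP factor of the acute phase, which went from 2.98 ± 0.225 to 23.9 ± 3.43 FPKM (log2 fold change 2.95, adjusted p = 8.42e-07). Tnfaip3 and Zc3h12a, both feedback inhibitors of inflammatory signalling, rose by 2.17 (adjusted p = 1.02e-06) and 1.85 (adjusted p = 5.42e-05). Cebpa fell from 2.53 ± 0.222 to 1.74 ± 0.252 FPKM (-0.52, adjusted p = 0.0159), and lost the call without Ad-Con replicate 2. Stat3, through which interleukin 6 acts, rose by 0.45 (adjusted p = 4.64e-04). Stat3 was named after its value was seen.

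Lipocalin 2, haptoglobin and Steap4 act on iron and haem, and 22 other genes of iron handling were listed. Of these, 18 were tested, and 4 rose (22.2%, beside 21.8% of all tested genes) and 7 fell (beside 20.8%), with a median of -0.05. Within the STEAP family of metalloreductases, Steap1 rose with Steap4, from 14.9 ± 0.790 to 37.6 ± 2.70 FPKM (log2 fold change 1.33, adjusted p = 5.11e-06). Steap2 rose by 0.67 (adjusted p = 6.78e-05). Steap3, the reductase of the transferrin cycle, fell from 43.6 ± 0.745 to 15.0 ± 1.19 FPKM (-1.53, adjusted p = 1.76e-06). It was the most abundant of the family in the Ad-Con libraries and the least abundant in the Ad-PDK4 libraries. Slc11a2, the iron importer DMT1, rose from 7.54 ± 0.480 to 16.7 ± 1.13 FPKM (1.14, adjusted p = 1.57e-05). Slc40a1, the iron exporter ferroportin, fell from 5.82 ± 0.133 to 1.34 ± 0.0649 FPKM (-2.04, adjusted p = 1.48e-06).

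Slc22a17, which encodes a receptor for lipocalin 2, fell from 4.16 ± 0.485 to 1.95 ± 0.128 FPKM (-1.05, adjusted p = 2.00e-04). The ferritin light chain gene Ftl1 fell by -0.73 (adjusted p = 3.80e-04), but its whole transcript is shared with 6 other gene models. Fth1, the ferritin heavy chain gene, fell by -0.24 (adjusted p = 5.54e-03), and this turned to 0.16 (adjusted p = 0.0238) after quantile normalization. The zinc and iron importer gene Slc39a14 was 0.23 higher (adjusted p = 0.0440), and the call was lost in each of the 6 fits that left out 1 library. Cd163, the receptor for haptoglobin bound to haemoglobin, had 0 reads in all libraries. Hmox1, which degrades haem, stood at 263 ± 23.0 and 261 ± 5.72 FPKM (log2 fold change -0.01, adjusted p = 0.929).

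**Figure D5:**
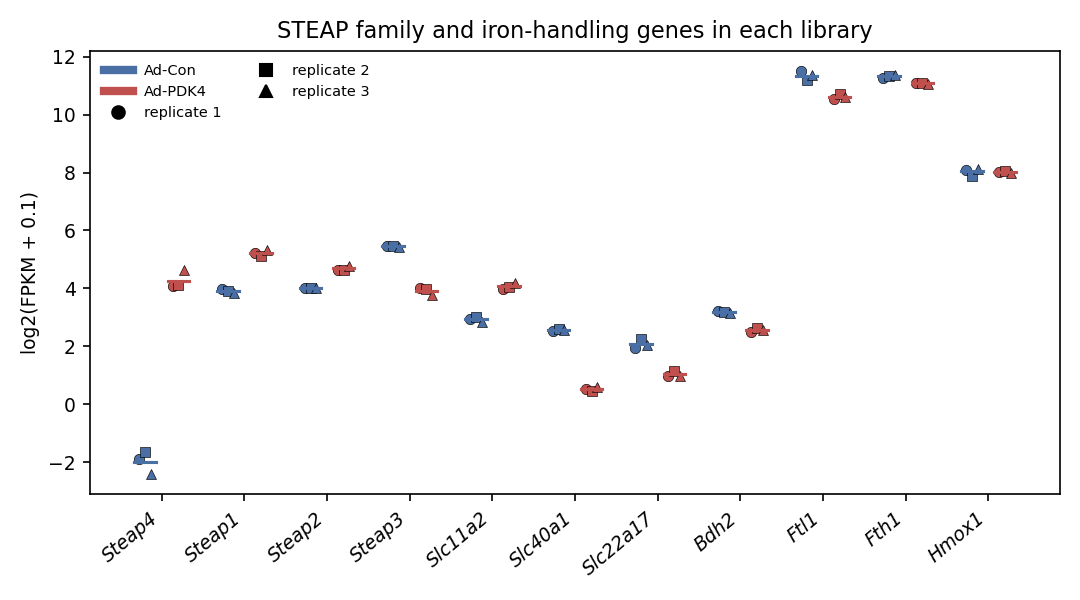
FPKM of Steap4, the other STEAP genes and further iron-handling genes in each library, on a log2 axis after adding 0.1; symbols mark replicates and bars the mean of the log2 values in each group. Steap4, Steap1, Steap2 and Slc11a2 are higher and Steap3, Slc40a1 and Slc22a17 lower in the libraries labelled Ad-PDK4, Fth1 is lower on this scale but not after quantile normalization, and Hmox1 overlaps.

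The products of further listed genes act with the members. Of 8 receptors or other partners of serum amyloid A 4 were tested, with a median log2 fold change of -0.18. Of the 4, 0 rose and 1 fell, beside 21.8% and 20.8% of all tested genes. The gene that fell was Abca1, a lipid exporter, at 27.1 ± 1.14 and 17.4 ± 0.772 FPKM (-0.64, adjusted p = 9.13e-05). Fpr2, a main receptor of serum amyloid A, had 0 reads. Of 13 partners or relatives of pentraxin 3 6 were tested, and 2 rose and 3 fell, beside 21.8% and 20.8% of all tested genes. Tnfaip6, a hyaluronan-binding protein, rose by 1.10 (adjusted p = 0.0110) and Fgf2 by 0.37 (adjusted p = 0.0245). Vcan, which encodes the matrix proteoglycan versican, fell from 5.25 ± 0.365 to 1.90 ± 0.196 FPKM (-1.42, adjusted p = 3.22e-05), Nptxr by -0.49 (adjusted p = 0.0127) and Selp by -0.25 (adjusted p = 0.0457). The call of Selp was lost in 4 of the 6 fits without 1 library and that of Fgf2 in 4. C1qa, C1qb and C1qc, the complement partners of pentraxin 3, had 0 reads in all libraries.

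Of 14 proteases that A3 serpins inhibit or that act with them, 6 were tested. Of the 6, 0 rose and 2 fell, beside 21.8% and 20.8% of all tested genes. Those that fell were the cathepsin genes Ctsh, by -0.58 (adjusted p = 4.53e-04), and Ctsk, by -0.47 (adjusted p = 6.08e-04). Ctsg and Elane, the neutrophil proteases cathepsin G and elastase, and Gzmb had 0 reads. Of the 22 other serpins of clade A none passed the filter on low values, and 11 had 0 reads. With no filter Serpina3i counted as higher (log2 fold change 1.72, adjusted p = 0.0266). Of the proteases, the cathepsin gene Ctss also counted as higher with no filter (1.66, adjusted p = 0.0227). Ctsl, another cathepsin gene, did so after rescaling to TPM (0.14, adjusted p = 0.0286).

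Markers of other cell types were summed in each library. Of 12 neutrophil markers 7 had 0 reads in all libraries, S100a9 and Ly6g among them, and the summed level was 0.596 to 1.12 FPKM under the Ad-Con label and 1.36 to 1.46 under the Ad-PDK4 label. Of 12 macrophage markers 4 were at 0, including Ptprc and Itgam, and the sum went the other way, from 15.0 to 18.1 down to 6.10 to 7.69 FPKM. That fall was carried by Cd68, which went from 14.2 ± 1.78 to 4.24 ± 0.991 FPKM (adjusted p = 4.39e-04), and without it the sum was 1.77 to 2.12 and 2.84 to 3.004 FPKM. Lyz2 stood at 1.51 and 1.98 FPKM (adjusted p = 0.0791) and Csf1r at 0.258 and 0.640 FPKM. Of 12 hepatocyte markers 8 were at 0, Alb and Ttr among them, with sums of 2.29 to 4.15 and 1.58 to 3.03 FPKM. Of 10 adipocyte markers Adipoq, Lep and Cidec were at 0, with sums of 8.73 to 9.16 and 6.71 to 7.68 FPKM. Sums of 10 endothelial markers were 1.24 to 1.56 and 1.32 to 1.56 FPKM, with 3 at 0. The neutrophil sum and the macrophage sum without Cd68 were thus higher under the Ad-PDK4 label with no overlap, and the full macrophage sum was lower. Of all tested genes 27.8% were higher with no overlap. The neutrophil sum consists mostly of Mmp8 (adjusted p = 0.203), without which it was 0.0187 to 0.0728 and 0.0884 to 0.377 FPKM. The part of these cell types in the results was not tested.

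The genes whose pattern was most like that of Saa3 were searched among 7728 genes with a mean of at least 5 FPKM, by the root mean square difference over the 6 libraries of log2 values relative to the Ad-Con mean. The nearest were H2-Q6 (0.52), Cxcl10 (0.66), Ccl5 (0.74), H2-Q5 (0.79) and Phf11b (1.18). These are class I major histocompatibility genes, chemokine genes and a gene of the Phf11 cluster, and H2-Q5 is annotated as a polymorphic pseudogene. Of the transcripts of H2-Q6, H2-Q5 and Phf11b, 38.1%, 37.5% and 50.1% lie in 100-base stretches shared with other genes, so their counts are uncertain. For Lcn2 the nearest were Ccl7 (0.22), Ifi203 (0.22), Mpeg1 (0.26), Oas2 (0.27) and Oasl2 (0.32), a chemokine gene, a gene of the p200 family, the perforin-like gene of macrophages and oligoadenylate synthetase genes. Mpeg1 stood at 0.552 ± 0.114 and 13.5 ± 1.33 FPKM. With control values of Saa3 and Lcn2 at or near 0, the likeness and the order of these genes rest on the pseudocount. Likeness over 2 groups of 3 libraries mostly reflects a like difference between the groups.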

How the data were processed

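Per the labels' processing notes, the authors used CASAVA 1.8, fastp, HISAT2 2.0.5, featureCounts 1.5.0-p3 and DESeq2 1.20.0 with the build GRCm39. The coordinates in the table match GENCODE M21 on GRCm38 for 98.33% of 54409 matched genes and are given on that build. The labels name a SMARTER kit and the methods another, and the strand setting is not given in the sources used here. The authors deposited FPKM per gene and library, with replicates not pooled and library sizes already scaled by size factors. Multiplied by gene length, 100% of non-zero values gave whole reads within 0.01 reads. Total reads per library limit precision, and intervals and floors cover counting error only, since amplified reads are not independent molecules. Replicates differed by more than sampling noise, with a chi-square per degree of freedom of 4.17 to 11.7 within groups and 84.4 to 107 between them.

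The groups came from the treatment labels. Values of log2(FPKM + 0.1) from all 6 libraries were fitted in R 4.3.3 by limma 3.58.1 (trend and robust, no covariates), with Benjamini-Hochberg adjustment over 13423 genes whose FPKM averaged at least 0.5. The fit was tested on simulated data. Against a group with 0 reads in every library a lower bound was computed from 3 reads per library, and against a group with a few reads a ratio of summed reads with an exact counting interval. Every adjusted p is from this fit unless another setting is named beside it. Promoters are from RefSeq (GRCm38.p6), aligned locally with Biopython 1.88. Shared sequence is the share of the longest transcript in stretches of 100 bases found in another gene.

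The members, gene lists and rules were chosen with earlier results of these data known. The text names the 10 members, Pdk4, the genes next to a member in its cluster, up to 4 genes per list and direction with the largest rise and fall among those past the threshold, and the 5 nearest patterns to Saa3 and Lcn2. Other genes named with a value, a direction or an overlap (Acta2, Myh11, Tagln, Mylk, Cnn1, Des, Itga8, Lmod1, Myocd, Stat3, Cald1, Tpm2, Smtn, Fth1, Hmox1, Mmp8, Cd68, Lyz2, Csf1r, Il1r1, Tnfrsf1a, Tnfrsf1b, Il17ra, Ifngr1, Ctss, Ctsl) and list genes named at 0 reads were picked with their values in view. Some list genes are counted but not reported here by name, in the text or in the figures. The alternatives were other pseudocounts, filters, scalings and moderation, a replicate block, limma-voom on the recovered reads and leaving out each library. Leaving out Cd68, Mmp8 or Acta2 from marker sums, and libraries from lower bounds, was chosen after seeing the data.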

Additional observations from a re-analysis of the deposited data

How the results depend on the processing

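Over 16 alternatives no log2 difference of a member changed sign, while among the list genes Fth1 did so after quantile normalization. The filters, the moderation and the replicate block cannot alter a member's difference, so only the other alternatives could have changed a sign. The balance of called genes turned with the scaling, from 2928 higher and 2798 lower (51.1% higher) to 2533 and 3140 (44.7%) after quantile normalization, and was 3361 and 2430 (58.0%) as TPM. Of the counts recomputed, 306 stayed within 1.5 times the reported value and 14 did not. Genes lower by at least 2-fold numbered 153 at a pseudocount of 1 against 360. With no filter 1 other clade A serpin and 1 serpin A3 target protease counted as higher against 0, and 1 protease did so after rescaling to TPM. At a minimum mean FPKM of 1, 1 pentraxin 3 partner was higher against 2, since Tnfaip6 was no longer tested. Serum amyloid A receptors or partners that were lower numbered 3 after quantile normalization and 2 with limma-voom, against 1. Without trend and robust moderation 1 cytokine or receptor gene was lower, against 0. Leaving out 1 library gave 0 to 1 transducers that were lower (0 without Ad-Con replicate 2) and 1 to 2 other acute-phase proteins that were lower (1 without Ad-Con replicate 3). It gave 1 to 2 pentraxin 3 partners that were higher (1 without Ad-Con replicate 3 or without Ad-PDK4 replicate 2 or 3). Serum amyloid A receptors or partners that were lower then numbered 1 to 2 (2 without Ad-PDK4 replicate 2). Where not stated, the cause was not tested.

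The log2 differences of the members moved with the pseudocount, as few control reads make them depend on it. At a pseudocount of 1 they were 5.51 for Saa3, 1.59 for Lcn2, 2.12 for Hp, 1.97 for Ptx3, 0.22 for Serpina3f, 1.91 for Serpina3g and 4.13 for Steap4. At 0.01 they were 10.86 for Saa3, 7.63 for Lcn2, 4.66 for Ptx3, 3.80 for Serpina3f and 6.92 for Steap4. As TPM, whose values are larger than FPKM beside the same pseudocount, they were 9.92, 6.04, 4.46, 2.44 and 6.77 in that order. With limma-voom on reads they were 10.83, 7.64, 4.65, 3.66 and 6.95. The other 136 such values moved by less than 1 SD between replicates, but many of them could not move. The filters, the moderation and the replicate block leave a member's difference unchanged, and Saa1 and Saa2 have no reads. Those values say nothing about stability.

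Replicate numbers did not pair the libraries, since the deviations of libraries with the same number correlated at -0.046, -0.031 and -0.001. With the number as a block 2759 genes rose and 2626 fell at an adjusted p below 0.05, against 2928 and 2798, with 529 and 354 past 2-fold. Under the block Rela, Slc39a14 and Selp lost their call. Depth limits Saa1, Saa2, Serpina3f and the cytokine genes with few reads.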
